A study of Homo sapiens with 36 samples.

Results

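Avelumab and atezolizumab, antibodies that bind PD-L1, were compared in 786-O cells selected for resistance to sunitinib, with all genes that passed a filter on low counts as the members. The comparison used 6 of the 36 libraries of the series, 3 treated with avelumab and 3 with atezolizumab, and 18886 of the 45478 genes counted. 786-O is an established human line of clear cell renal cell carcinoma, and sunitinib blocks receptor tyrosine kinases, among them those of VEGF and PDGF. The resistant cells came from parental 786-O cells grown under rising sunitinib until they were stable at 4 µM. The libraries labelled A498 resistant, used below for a comparison between cell states, were selected to stability at 2 µM. Antibody exposure lasted 24 h, with a concentration that the labels write as 10 mg/mL, and polyadenylated RNA was sequenced. The 3 durvalumab libraries of the same resistant cells helped to estimate the spread between libraries. All 9 libraries carry the same batch label. Untreated or isotype-treated libraries were not analysed here, so every difference below is between antibodies and neither antibody has a baseline. The labels do not say whether sunitinib was in the medium during antibody treatment, or whether replicates were grown separately. The p-values therefore reflect the spread among these libraries alone, which may be technical. The resistant cells are 1 selected line.

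PD-L1, the product of CD274, is a surface protein that restrains T cells through the receptor PD-1. Avelumab keeps a native IgG1 constant region, whereas the constant region of atezolizumab was engineered to lack glycosylation and bind Fc receptors poorly. 786-O cells lack a working VHL protein, so hypoxia-inducible factor 2α is stable in them. Carcinoma lines of this kind often show constant activity of NF-kB, the transcription factor family that drives cytokine and chemokine genes and also its own inhibitors.

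The upstream sequences of 4 genes of the NF-kB list that were lower under avelumab, and of EGR1, which was higher, are shown so that a reader can see windows with and without the patterns. IL6, TNFAIP3, CSF2 and EGR1 kept their calls in every alternative setting, CXCL1 lost its call without 2 of the 6 libraries, and CSF2 was included as a window with no match. Each is the stretch of 250 bases before the RefSeq start on GRCh38.p14, 5′ to 3′ on the strand of the gene. Capitals mark the NF-kB pattern, GGGA and TTCC separated by any 2 bases and searched on both strands, or, in EGR1, the CArG box bound by serum response factor. The patterns and the genes shown were chosen after the values were seen.
IL6 (chr7:22726950-22727199, plus strand): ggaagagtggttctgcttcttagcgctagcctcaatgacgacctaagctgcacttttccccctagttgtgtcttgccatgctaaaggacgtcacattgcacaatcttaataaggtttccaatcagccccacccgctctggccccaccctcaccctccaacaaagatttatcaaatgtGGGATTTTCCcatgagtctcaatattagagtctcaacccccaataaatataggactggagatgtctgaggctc
TNFAIP3 (chr6:137867009-137867258, plus strand): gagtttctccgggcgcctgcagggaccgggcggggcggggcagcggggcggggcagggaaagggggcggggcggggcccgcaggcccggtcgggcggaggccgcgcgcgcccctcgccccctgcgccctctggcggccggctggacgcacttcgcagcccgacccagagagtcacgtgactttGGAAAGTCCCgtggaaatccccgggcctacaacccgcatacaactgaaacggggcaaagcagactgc
CXCL1 (chr4:73869143-73869392, plus strand): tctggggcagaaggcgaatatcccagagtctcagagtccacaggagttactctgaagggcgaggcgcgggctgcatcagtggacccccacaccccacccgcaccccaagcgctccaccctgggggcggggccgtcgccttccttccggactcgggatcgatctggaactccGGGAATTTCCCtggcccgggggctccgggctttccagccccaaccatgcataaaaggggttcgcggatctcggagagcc
CSF2 (chr5:132073539-132073788, plus strand): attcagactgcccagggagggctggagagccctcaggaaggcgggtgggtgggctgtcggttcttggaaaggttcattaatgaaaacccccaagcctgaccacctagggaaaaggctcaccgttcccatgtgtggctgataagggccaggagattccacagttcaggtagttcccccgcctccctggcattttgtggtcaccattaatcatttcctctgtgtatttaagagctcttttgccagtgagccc
EGR1 (chr5:138465229-138465478, plus strand): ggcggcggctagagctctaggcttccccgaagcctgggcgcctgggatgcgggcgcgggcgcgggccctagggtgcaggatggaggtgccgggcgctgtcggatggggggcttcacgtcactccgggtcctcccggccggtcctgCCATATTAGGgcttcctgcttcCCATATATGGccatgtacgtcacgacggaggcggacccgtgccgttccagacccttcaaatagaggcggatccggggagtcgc

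The NF-kB match began 73 bases before the start in IL6 and 67 bases before it in TNFAIP3. In CXCL1 overlapping matches on the opposite strands filled the same run, and the CSF2 window held no match to this pattern. Looser forms of the pattern were not searched, so a window without a match may still hold an NF-kB site. Over all 35116 windows of this length, 1.4% held the pattern. Counted by gene, with a match in any window of the gene, 236 of 12059 tested genes with a window (1.96%) held it. Of 30 tested members of a list of NF-kB targets, cytokines and chemokines, 24 were matched by symbol to an upstream window, and 12 of them (50.0%) held it. Of the members called lower under avelumab, 11 were matched and 8 held it (72.7%), namely CXCL1, CXCL2, CXCL5, IL32, IL6, NFKB2, NFKBIA and TNFAIP3, while CCL20, CSF2 and CXCL8 held none. The EGR1 window held CArG boxes that began 105 and 83 bases before the start, and 1.16% of all windows held such a box. The list was drawn up from NF-kB targets, so a share above that of all genes was built in. The 24 members include the 11 called lower, so their shares are not separate. A match is a description of letters and was not tested as a binding site.

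Total counts ran from 32083005 to 40665290 in the atezolizumab libraries, from 40069643 to 51966798 in the avelumab libraries and from 38325859 to 43610483 in the durvalumab libraries, so the avelumab libraries were mostly deeper. Correlations of log2 CPM (a gene's counts scaled to a fixed library total) between libraries lay between 0.994 and 0.997. Mitochondrial genes took 2.2% to 2.7% of counts under atezolizumab and 1.9% to 2.2% under avelumab. All 10 markers of the renal carcinoma line were present in every library, from 24.4 CPM for PAX2 upward. Of 15 leukocyte markers, CD2 and TYROBP were at 0 in all 9 libraries and PTPRC had 1 read in all. CD14, CD68, FCER1G, ITGAM and CD79A were detected in all 9 libraries, with 162, 111, 90, 84 and 29 reads in all. The highest of these values was 0.70 CPM, for CD14. The summed level of the list was 1.00 to 1.47 CPM under atezolizumab and 1.07 to 1.49 CPM under avelumab. The Fc gamma receptor genes FCGR2B, FCGR3A and FCGR3B were at 0 throughout, which allows up to 0.0935 CPM at 3 counts in the smallest library. FCGR1A and FCGR2A were detected in all 9 libraries, with 21 and 50 reads in all and at most 0.13 and 0.2 CPM. Of the other genes on the list of Fc receptors, FCGRT was at 0.30 to 0.64 CPM and TRIM21 at 29.2 to 34.5 CPM. The summed fibroblast list, mostly LUM and COL1A1, was 10.3 to 11 CPM under atezolizumab and 11.2 to 12 CPM under avelumab, and the endothelial list stayed at or below 1.05 CPM.

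Under avelumab 159 genes were higher and 69 were lower than under atezolizumab, 228 in all or 1.21% of the genes tested (0.842% higher and 0.365% lower; edgeR's quasi-likelihood test, Benjamini-Hochberg adjusted p under 0.05). Those shares are the background for every count of called list members below. The changes were small. The median absolute log2 change of the called genes was 0.33, 200 of the 228 changed by less than 1.5-fold, and all 10 that changed by at least 2-fold (0.0529%) were higher under avelumab. Of these 10 genes, 7 had a mean under 5 CPM in the higher group. At an unadjusted p under 0.05 there were 2867 genes (15.2%). Of the called genes 208 were protein coding, and 202 reached a mean of 5 CPM in the higher group. The avelumab and atezolizumab libraries did not overlap for any called gene. Over all genes tested, the avelumab libraries lay wholly above for 14.4% and wholly below for 9.02%. The count depended on single libraries. It was 119 without atezolizumab replicate 1, 73 without replicate 2 and 81 without replicate 3, and 98 and 118 without avelumab replicates 2 and 3. With raw library totals in place of TMM scaling the split was 189 higher and 42 lower.

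**Figure D1:**
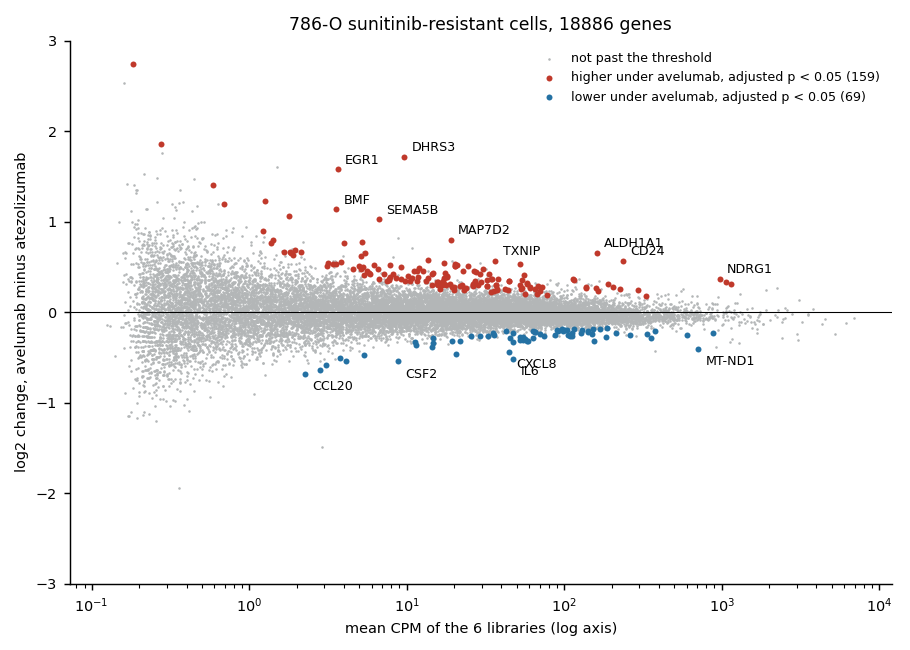
Log2 change of avelumab minus atezolizumab (vertical axis) against mean CPM of the 6 libraries (horizontal log axis) for the 18886 genes tested in 786-O sunitinib-resistant cells. The 159 genes called higher (red) reach larger changes than the 69 called lower (blue), and most called genes lie within 1 log2 unit of 0.

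CD274 itself (ENSG00000120217.14, chromosome 9, 5450503 to 5470566, plus strand), the target of the antibodies, was measured at 9.17, 8.32 and 9.37 CPM in the atezolizumab libraries, 8.45, 8.81 and 9.38 CPM in the avelumab libraries and 8.69, 9.09 and 8.99 CPM in the durvalumab libraries. The groups overlapped, and its change did not pass (log2 change -0.04 ± 0.082, adjusted p = 0.87). None of the 17 tested checkpoint ligands and regulators of PD-L1, and none of 22 class I antigen presentation genes, passed the test by edgeR. At an unadjusted p under 0.05 there was 1 gene of each list, against 15.2% of all genes. The list medians were 0.0026 and -0.016 against -0.003 over all genes. Of 55 interferon response genes 1 passed, IFITM1, a membrane protein that restricts viruses, at 9.27 ± 0.903 CPM under atezolizumab and 13.04 ± 1.71 CPM under avelumab (SD, n = 3; log2 change 0.46 ± 0.10). IFITM1 shares 32.5% of its exonic length with a neighbouring family member, so its value is uncertain, and its call was lost without 5 of the 6 libraries in turn, all but avelumab replicate 2, and with all 36 libraries in the fit (adjusted p up to 0.16).

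The retinoid genes held the largest change among genes of at least 5 CPM. DHRS3 (ENSG00000162496.9, chromosome 1, 12567910 to 12617731, minus strand), which reduces retinaldehyde to retinol, was at 4.66, 3.96 and 4.67 CPM under atezolizumab and 17.9, 12.99 and 13.8 CPM under avelumab. Every avelumab library lay at more than 2 times every atezolizumab library, and the difference was 3.29-fold (log2 change 1.72 ± 0.12, adjusted p = 9.1e-08). The durvalumab libraries, at 6.29, 5.66 and 5.503 CPM, lay just above atezolizumab. ALDH1A1 (ENSG00000165092.13, chromosome 9, 72900662 to 73080442, minus strand), which oxidises retinaldehyde toward retinoic acid, was at 128, 111 and 131 CPM under atezolizumab and 214, 178 and 203 CPM under avelumab (log2 change 0.66 ± 0.071, adjusted p = 1.5e-04). The groups were well apart, and durvalumab, at 131, 143 and 144 CPM, again stood nearer to atezolizumab. TGM2, the transglutaminase that retinoic acid induces in many cells, was lower under avelumab, at 530.1, 578 and 554 CPM against 646, 681 and 616 CPM (log2 change -0.25 ± 0.048, adjusted p = 0.01). These were the 3 called members of 14 tested in the retinoid list, whose median change was 0.076. The calls of DHRS3 and ALDH1A1 held under every alternative setting, whereas that of TGM2 was lost without atezolizumab replicate 1 or 2 (adjusted p up to 0.1).

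EGR1 (ENSG00000120738.8, chromosome 5, 138465490 to 138469315, plus strand), the immediate early zinc finger factor whose upstream CArG boxes are shown above, was at 2.004, 1.43 and 1.92 CPM under atezolizumab, 6.101, 5.12 and 5.27 CPM under avelumab and 1.905, 1.64 and 1.95 CPM under durvalumab. All avelumab libraries lay far above all others, and the durvalumab libraries overlapped those of atezolizumab (2.99-fold over atezolizumab; log2 change 1.58 ± 0.13, adjusted p = 8.8e-07). The rest of the immediate early list did not follow EGR1: of 33 members tested it alone was called higher, the median was -0.055, and 2 members were lower. FOSL1, a subunit of the AP-1 factor, was at 197, 203 and 202 CPM under atezolizumab and 179.9, 162 and 163 CPM under avelumab (log2 change -0.28 ± 0.046, adjusted p = 0.0024). DUSP1, a phosphatase that switches off MAP kinases, was at 69.3, 64.1 and 62.8 CPM and 55.8, 51.4 and 52.9 CPM (log2 change -0.32 ± 0.054, adjusted p = 0.0032). The falls were 1.21-fold and 1.24-fold with no overlap of libraries, and the calls of these 3 genes held under every alternative setting.

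Of all the gene lists, the NF-kB list held the most genes called lower under avelumab. Of the 30 tested members of the NF-kB list, 14 were called lower and 0 higher, against a background of 0.365% of all genes called lower. The list median was -0.21 against -0.003 over all genes, and in 20 of the 30 members every avelumab library lay below every atezolizumab library, as for 9.02% of all genes. The falls were between 1.14-fold and 1.61-fold. The number called was 4 to 8 when any of the 6 libraries was left out, so the count of 14 rests on all of them, while none was called higher under those settings.

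Among the cytokines, IL6 (ENSG00000136244.12, chromosome 7, 22725884 to 22732002, plus strand) was at 55.7, 52.4 and 58.99 CPM under atezolizumab, 43.8, 53.02 and 50.3 CPM under durvalumab and 38.4, 39.7 and 40.5 CPM under avelumab. The avelumab libraries agreed closely and lay below all others (log2 change -0.52 ± 0.067, adjusted p = 2.8e-04), although IL6 shares 20.7% of its exonic length with an antisense gene and is uncertain to that extent. CSF2 (ENSG00000164400.6, chromosome 5, 132073790 to 132076170, plus strand), which encodes the growth factor GM-CSF, was at 10.3, 10.1 and 10.6 CPM under atezolizumab and 6.61, 7.43 and 7.61 CPM under avelumab. This was a 1.46-fold fall with no overlap (log2 change -0.54 ± 0.088, adjusted p = 0.0021). CSF1, the macrophage growth factor, was far more abundant in read counts and fell less, from 412, 387 and 401 CPM to 351, 349 and 352 CPM (log2 change -0.21 ± 0.051, adjusted p = 0.041), and LIF, a cytokine of the IL-6 family, fell from 103 ± 1.57 to 91.8 ± 1.53 CPM (SD, n = 3; log2 change -0.19 ± 0.044, adjusted p = 0.035). IL32 was at 275, 278 and 291 CPM under atezolizumab and 252, 236 and 234 CPM under avelumab (log2 change -0.25 ± 0.046, adjusted p = 0.007). TNF, which was not on the list and was chosen after its values were seen, was at 4.76, 4.55 and 5.14 CPM and 2.94, 3.37 and 3.82 CPM (log2 change -0.54 ± 0.12, adjusted p = 0.033). The calls of IL6 and CSF2 held under every alternative setting. IL32 missed the threshold without atezolizumab replicate 3 or avelumab replicate 2 or 3 (adjusted p up to 0.089), TNF without any library but avelumab replicate 3 (up to 0.17), and CSF1 and LIF without any of the 6 (up to 0.18 and 0.16). With raw library totals or mitochondrial genes removed CSF1 and LIF also missed it, as did CSF1 with a stricter filter on low counts, LIF when thinned to equal depth, and TNF when thinned or with all 36 libraries in the fit.

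On the NF-kB list 5 chemokines were called lower. Of chemokines outside these 5, CXCL10 was at 3.27 ± 0.276 CPM under atezolizumab and 2.61 ± 0.176 CPM under avelumab. CX3CL1 was at 36.2 ± 1.58 and 35.5 ± 0.839 CPM. CXCL8 (ENSG00000169429.11, chromosome 4, 73740506 to 73743716, plus strand), which attracts neutrophils, was at 52.7, 48.6 and 52.3 CPM under atezolizumab, 35.01, 38.1 and 42.1 CPM under avelumab and 43.9, 52.7 and 57.1 CPM under durvalumab. The avelumab libraries lay below all others, and the durvalumab libraries overlapped those of atezolizumab (log2 change -0.44 ± 0.09, adjusted p = 0.03). CXCL1 was at 3.38, 3.09 and 3.79 CPM and 2.24, 2.12 and 2.37 CPM (log2 change -0.64 ± 0.12, adjusted p = 0.0098), CXCL2 at 3.78, 3.55 and 3.69 CPM and 2.35, 2.23 and 2.94 CPM (log2 change -0.59 ± 0.12, adjusted p = 0.021). These neighbours on chromosome 4 are close copies of each other, so reads may be shared between them and their values are uncertain. CXCL5, which uses the same receptor, fell from 47.3, 49.8 and 51.1 CPM to 37.1, 40.7 and 45.5 CPM (log2 change -0.29 ± 0.063, adjusted p = 0.025), and CCL20, the ligand of CCR6, from 3.01, 2.65 and 2.71 CPM to 1.75, 1.77 and 1.77 CPM (log2 change -0.69 ± 0.14, adjusted p = 0.016). Each of these 5 calls was lost without 2 or more of the 6 libraries: CXCL8 and CXCL2 without any but avelumab replicate 3 (CXCL8 also with all 36 libraries in the fit), CXCL1 without atezolizumab replicate 3 or avelumab replicate 2, CXCL5 without atezolizumab replicate 2 or 3 or avelumab replicate 1 or 2, and CCL20 without atezolizumab replicate 1 or 3 or avelumab replicate 2 or 3 (adjusted p up to 0.12, 0.13, 0.1, 0.15 and 0.088 in that order).

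Inhibitors and a subunit of the pathway fell as well. TNFAIP3, which encodes the deubiquitinase A20 that shuts the pathway off, was at 68.8, 67.5 and 70.01 CPM under atezolizumab, 64.6, 63.1 and 63.98 CPM under durvalumab and 56.2, 56.7 and 59.7 CPM under avelumab. The 3 antibodies formed non-overlapping steps in that order (log2 change -0.28 ± 0.047, adjusted p = 0.0024 for avelumab minus atezolizumab). NFKBIA, which encodes the inhibitor IκBα, fell from 68.2, 69.6 and 65.95 CPM to 59.6, 60.2 and 59.4 CPM (log2 change -0.21 ± 0.048, adjusted p = 0.035), and NFKB2, the precursor of subunit p52, from 161 ± 3.93 to 144 ± 6.07 CPM (SD, n = 3; log2 change -0.19 ± 0.046, adjusted p = 0.048). IER3 fell from 64.5, 63.4 and 63.3 CPM to 52.6, 51.2 and 52.6 CPM (log2 change -0.31 ± 0.047, adjusted p = 9.9e-04). It shares 26.5% of its exonic length with the antisense gene IER3-AS1, itself at 16.3 ± 1.204 and 12.7 ± 1.17 CPM. The strand setting of the counting is not known, so reads in the shared part may be mixed and both values are uncertain. The adhesion genes ICAM1 (-0.17 ± 0.048) and VCAM1 (-0.12 ± 0.066) did not pass. The calls of TNFAIP3 and IER3 held in all settings, and that of NFKBIA was lost without any of the 6 libraries and with raw library totals (adjusted p up to 0.18). NFKB2 kept its call in 6 of 17 alternatives. It missed the threshold without any library but avelumab replicate 1, and with RLE scaling, raw library totals, a stricter filter on low counts, limma-voom, thinning to equal depth or mitochondrial genes removed (adjusted p up to 0.27).

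**Figure D2:**
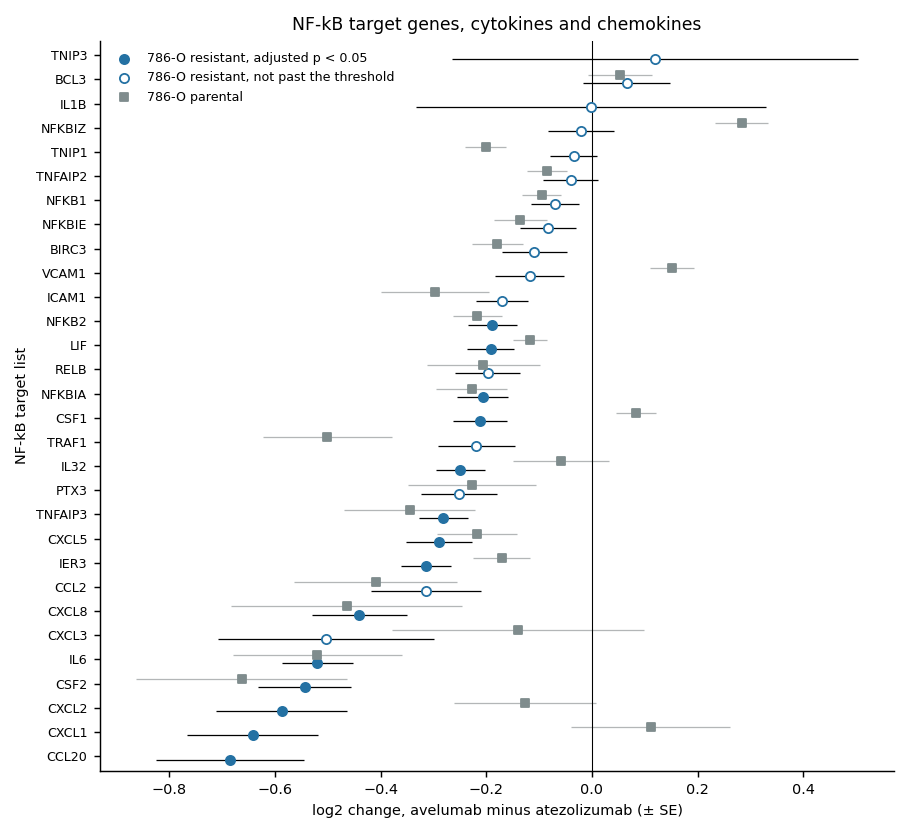
Log2 change of avelumab minus atezolizumab (horizontal axis, bars ± SE) for the 30 tested members of the NF-kB list in 786-O resistant cells (circles, filled where adjusted p is under 0.05) and in 786-O parental cells (squares). In resistant cells 28 of the 30 lie below 0 (27 with RLE scaling, 26 with raw totals) and 14 are called lower. In parental cells 27 members were tested, of which 5 are called lower and 2 higher. Of the 14, CXCL1 and CSF1 lie above 0 in parental cells.

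A few matrix and adhesion genes fell. LAMB3, which encodes a chain of a basement membrane laminin, was at 172, 174 and 170 CPM under atezolizumab and 134, 143 and 143 CPM under avelumab (log2 change -0.32 ± 0.047, adjusted p = 8.9e-04). PLAUR, the urokinase receptor, was at 58.9, 60.5 and 58.5 CPM and 48.6, 50.5 and 49.9 CPM (log2 change -0.28 ± 0.048, adjusted p = 0.0039). The avelumab libraries of both genes lay clear of the atezolizumab libraries, and both calls held in every alternative setting. In the list of matrix, adhesion and mesenchymal genes, 3 of 36 tested were called, all lower, against 0.365% of all genes called lower, and the median was -0.041. In a list of 21 YAP and TEAD targets, read against the same share, 3 were lower: NUAK2, a kinase (-0.20 ± 0.05), F3, which encodes tissue factor (118, 127 and 120 CPM and 97.04, 103 and 108 CPM; log2 change -0.27 ± 0.055, adjusted p = 0.017), and CCN1, a secreted matrix protein (942, 913 and 962 CPM and 833, 788 and 825 CPM; log2 change -0.23 ± 0.046, adjusted p = 0.015). F3 lost its call without atezolizumab replicate 2 or 3 or avelumab replicate 1 or 2 (adjusted p up to 0.13), CCN1 without atezolizumab replicate 1 or 3 or avelumab replicate 2 or 3 (up to 0.13). ID1, a target of BMP signalling, was the called member of 17 tested in that list, at 116, 124 and 112 CPM and 99.5, 99.97 and 98.8 CPM (log2 change -0.26 ± 0.045, adjusted p = 0.0034; adjusted p 0.1 with all 36 libraries in the fit).

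Among the other genes with the lowest changes, most were at modest levels. G0S2, an inhibitor of triglyceride lipase, was at 24.1 ± 0.711 CPM under atezolizumab and 19.6 ± 1.67 CPM under avelumab (log2 change -0.32 ± 0.072, adjusted p = 0.028). DOK7, an adaptor of the muscle kinase MuSK, was at 21.4 ± 1.38 and 17.4 ± 0.389 CPM (log2 change -0.32 ± 0.07), and MARCHF4, a membrane ubiquitin ligase, at 12.4 ± 0.608 and 10.03 ± 0.177 CPM (-0.33 ± 0.074). The noncoding genes ITGB2-AS1 (-0.47 ± 0.093), SLCO4A1-AS1 (-0.33 ± 0.07) and HCG20 (-0.34 ± 0.073) were also among the 12 lowest called genes of at least 5 CPM. The 2 antisense genes share 13.5% and 22.6% of their exonic length with a neighbour. Each of these 6 calls was lost when at least 1 of the 6 libraries was left out, with adjusted p up to 0.13 for G0S2, 0.17 for DOK7, 0.16 for MARCHF4, 0.075 for ITGB2-AS1, 0.18 for SLCO4A1-AS1 and 0.15 for HCG20. With raw library totals DOK7, MARCHF4 and SLCO4A1-AS1 missed the threshold as well.

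**Figure D3:**
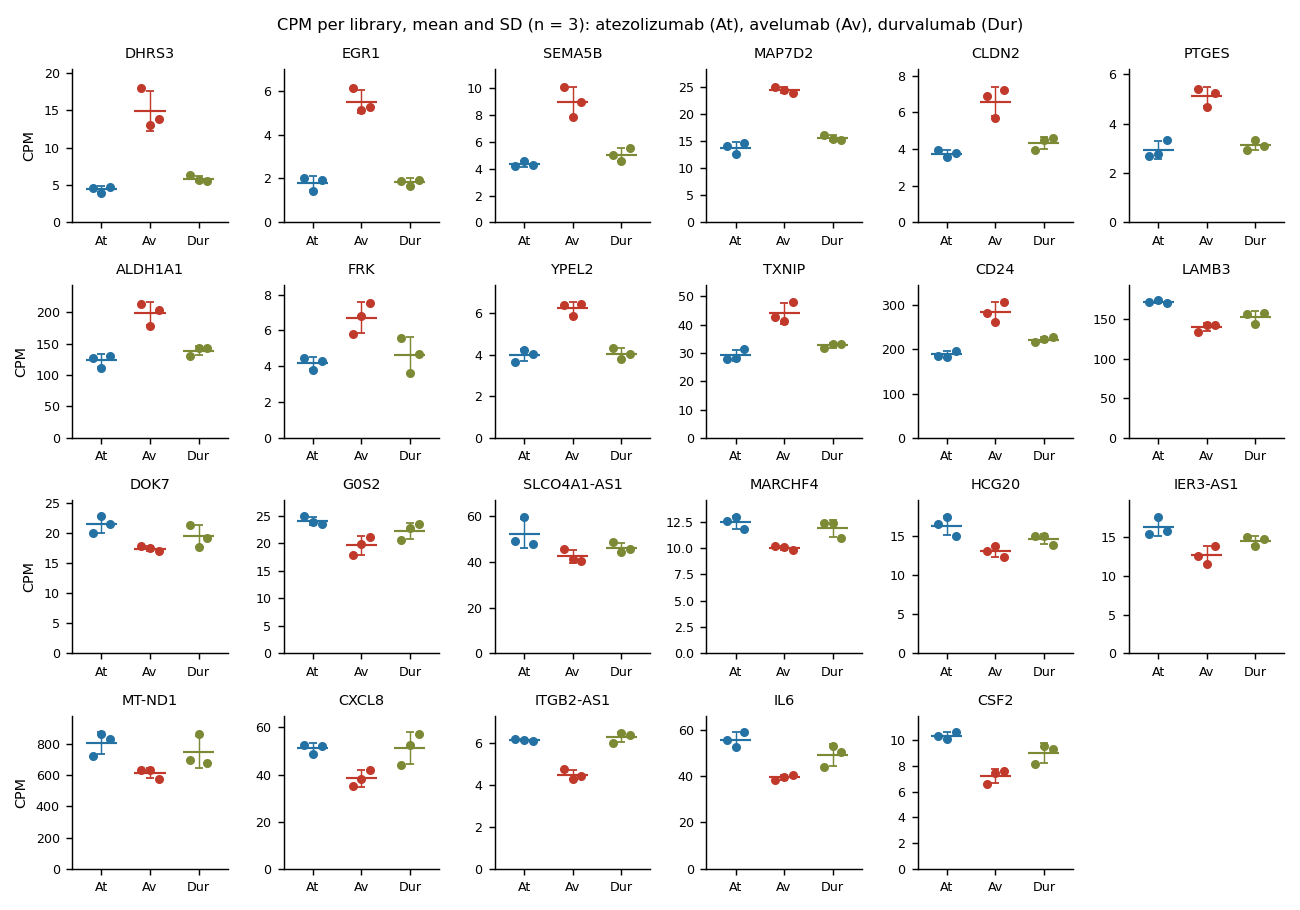
CPM (vertical axes, from 0) in each library of 11 of the 12 genes with the highest and the 12 with the lowest changes, for atezolizumab (blue, At), avelumab (red, Av) and durvalumab (olive, Dur), with the mean and SD of 3 libraries. The genes were ranked among called genes with a mean of at least 5 CPM in the higher group. In every panel the avelumab points lie wholly above or wholly below the atezolizumab points; DHRS3 rises from at most 4.67 CPM to at least 13.0 CPM.

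TXNIP (ENSG00000265972.6, chromosome 1, 145992435 to 145996600, minus strand), an arrestin that restrains glucose uptake and binds thioredoxin, was at 27.7, 28.3 and 31.4 CPM under atezolizumab, 31.8, 33.2 and 33.1 CPM under durvalumab and 42.7, 41.2 and 48.1 CPM under avelumab. Avelumab stood clear above both others (1.48-fold over atezolizumab; log2 change 0.57 ± 0.065, adjusted p = 5.4e-05). ARRDC3, a related arrestin, rose from 32.2, 34.1 and 33.2 CPM to 41.1, 42.5 and 46.6 CPM (log2 change 0.36 ± 0.055, adjusted p = 0.0011). They were the called members of 11 tested in a list of arrestins and MondoA targets, whose median was 0.019, and both calls held in every alternative setting.

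TXNIP also belongs to a list of FOXO targets and genes that rise when growth factors are withdrawn, which was written after the values were seen and is therefore given as a description. Of its 27 tested members 10 were higher and 1 was lower, against 0.842% and 0.365% of all genes, with a median of 0.16. BMF, a BH3-only protein that promotes apoptosis, was at 2.23, 1.99 and 2.34 CPM under atezolizumab and 4.99, 4.52 and 5.29 CPM under avelumab, a 2.201-fold rise in which no library overlapped (log2 change 1.14 ± 0.12, adjusted p = 1.5e-05). CCNG2, the cell cycle inhibitor cyclin G2, was at 9.92, 9.23 and 10.03 CPM and 12.9, 13.2 and 14.8 CPM (log2 change 0.46 ± 0.084, adjusted p = 0.0068). FBXO32, the ubiquitin ligase atrogin-1, was at 12.3, 11.5 and 11.5 CPM and 15.3, 15.7 and 15.6 CPM (log2 change 0.38 ± 0.068, adjusted p = 0.0052). YPEL2 went from 3.98 ± 0.295 to 6.23 ± 0.313 CPM (0.63 ± 0.10). It was among the 12 highest changes of called genes with a mean of at least 5 CPM in the higher group. TSC22D3, a leucine zipper protein that glucocorticoids also induce, went from 23.9 ± 0.939 to 30.6 ± 1.49 CPM (0.33 ± 0.059), and KLHL24 from 14.9 ± 0.435 to 19.6 ± 0.815 CPM (0.37 ± 0.069). HBP1, PDCD4 and TP53INP1 completed the 10 at 0.30 ± 0.055, 0.29 ± 0.06 and 0.34 ± 0.077 on the log2 scale, and HBP1 and PDCD4 share 15.3% and 28.1% of their exonic length with a neighbour. The lower member was GADD45A, a stress gene also induced by p53, at 94.03, 92.1 and 95.1 CPM and 80.9, 78.5 and 80.7 CPM (log2 change -0.25 ± 0.045, adjusted p = 0.0053). BMF, YPEL2 and TXNIP kept their calls in every setting. The number called in the list was 7 without atezolizumab replicate 2 and 5 without replicate 3.

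In a list of renal tubule genes, likewise written after the values were seen, 11 of the 31 tested members were called higher under avelumab and 0 lower, against 0.842% and 0.365% of all genes. The other 20 did not pass. The signs were mixed, with 21 members above 0, 10 below and a median of 0.096. The avelumab libraries lay wholly above atezolizumab for 12 members and wholly below for 4, against 14.4% and 9.02% of all genes. At an unadjusted p under 0.05, 12 were higher and 3 lower, where 15.2% of all genes passed in either direction. CLDN2, the cation pore of proximal tubule junctions, was at 3.93, 3.55 and 3.76 CPM under atezolizumab and 6.87, 5.68 and 7.21 CPM under avelumab (log2 change 0.78 ± 0.11, adjusted p = 6.0e-04). CDH6, a cadherin of the developing nephron, was at 22.9, 21.9 and 21.7 CPM and 29.3, 30.2 and 33.6 CPM (log2 change 0.46 ± 0.063, adjusted p = 3.9e-04), and CDH16, the kidney cadherin, at 4.98, 5.14 and 5.14 CPM and 8.04, 6.83 and 7.34 CPM (log2 change 0.52 ± 0.10, adjusted p = 0.0096). PDZK1, a scaffold for apical transporters, was at 19.5, 19.9 and 20.8 CPM and 31.5, 28.9 and 26.7 CPM (log2 change 0.51 ± 0.073, adjusted p = 6.3e-04). The brush border peptidase ENPEP rose from 12.2 ± 0.39 to 16.6 ± 0.885 CPM (0.42 ± 0.068) and DPP4 from 150.2 ± 0.865 to 180.2 ± 9.16 CPM (0.24 ± 0.045). The ion transport genes SLC4A4 (0.35 ± 0.065), ATP1B1 (0.32 ± 0.049) and CA2 (0.28 ± 0.052) rose by 1.27-fold or less. KMO, which hydroxylates kynurenine, rose from 13.9 ± 1.11 to 20.6 ± 2.21 CPM (0.54 ± 0.077) but shares 28.4% of its exonic length with OPN3, and HAVCR1, the injury marker KIM-1, changed least (0.19 ± 0.046). The lineage factors PAX8 and PAX2, at -0.11 ± 0.044 and -0.025 ± 0.074, did not pass. The list count was 6 without atezolizumab replicate 2 and 7 without replicate 3, and HAVCR1 lost its call without any of the 6 libraries, with limma-voom and with libraries thinned to equal depth (adjusted p up to 0.28).

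Lipid and hypoxia genes showed a few rises. SCD (ENSG00000099194.6, chromosome 10, 100347124 to 100364834, plus strand), the desaturase that makes monounsaturated fatty acids, was at 946, 931 and 929 CPM under atezolizumab and 1200.5, 1153 and 1225 CPM under avelumab (log2 change 0.33 ± 0.044, adjusted p = 3.4e-04), and it was the called member of 13 tested fatty acid synthesis genes, whose median was 0.11. Of 25 SREBP-driven cholesterol genes 3 were higher and 0 lower (median 0.047; 0.842% of all genes were called higher): STARD4, a sterol carrier (0.34 ± 0.066), INSIG1, which holds the SREBP escort in the endoplasmic reticulum (0.28 ± 0.052), and HMGCS1, an early enzyme of the pathway (0.18 ± 0.044), whose exons overlap a neighbour by 14.9%. Of 36 targets of hypoxia-inducible factors 4 were higher and 0 lower (median 0.029), against the same 0.842%. NDRG1, a stress-induced gene of high read number, was at 865, 814 and 852 CPM and 1197, 1054 and 1069.6 CPM (log2 change 0.37 ± 0.05, adjusted p = 3.9e-04), and IGFBP3, which binds insulin-like growth factors, at 1034, 974 and 1048 CPM and 1287, 1209 and 1355 CPM (log2 change 0.31 ± 0.05, adjusted p = 0.0021). EGLN3, an oxygen-sensing hydroxylase, and HK2, a hexokinase, changed by 0.27 ± 0.052 and 0.23 ± 0.052. The calls of SCD, NDRG1 and IGFBP3 held in every alternative setting. The cholesterol count was 0 without atezolizumab replicate 2, 1 without atezolizumab replicate 1 or avelumab replicate 3 and 6 without avelumab replicate 1, and the hypoxia count was 2 without atezolizumab replicate 2 or 3.

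Other genes of the 12 highest among called genes of at least 5 CPM were on none of the gene lists. SEMA5B, a semaphorin with thrombospondin repeats, was at 4.18, 4.58 and 4.25 CPM under atezolizumab and 10.1, 7.85 and 8.96 CPM under avelumab (log2 change 1.02 ± 0.11, adjusted p = 1.5e-05). MAP7D2, a microtubule-associated protein, was at 14.1, 12.5 and 14.6 CPM and 25, 24.3 and 23.9 CPM (log2 change 0.80 ± 0.068, adjusted p = 8.8e-07), with no overlap and an SD of 0.56 CPM under avelumab and 1.09 CPM under atezolizumab. PTGES, which makes prostaglandin E2, was at 2.68, 2.77 and 3.34 CPM and 5.397, 4.66 and 5.24 CPM (log2 change 0.77 ± 0.12, adjusted p = 0.0012). FRK, a kinase related to Src, was at 4.17 ± 0.351 and 6.71 ± 0.86 CPM (log2 change 0.65 ± 0.13, adjusted p = 0.018). CD24, a small surface glycoprotein that inhibits phagocytes, was at 186, 182 and 197 CPM and 282, 263 and 308 CPM (log2 change 0.57 ± 0.053, adjusted p = 4.0e-06); its processed copy CD24P4 was also called, so the placing of reads between them is uncertain. Of these 5 genes, FRK alone lost its call in some settings, without atezolizumab replicate 2 or 3 or avelumab replicate 2 or 3 (adjusted p up to 0.13).

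All 13 messenger RNAs of the mitochondrial genome were below 0 in the comparison, from -0.43 to -0.21 on the log2 scale with a median of -0.30, but 1 passed the test. MT-ND1, a subunit of complex I, was at 724, 861 and 829 CPM under atezolizumab, 697, 863 and 678 CPM under durvalumab and 634, 636 and 577 CPM under avelumab (log2 change -0.41 ± 0.087, adjusted p = 0.044). The avelumab libraries lay below all others, and nuclear copies of this gene make the value uncertain. Its call was lost without any library but atezolizumab replicate 1, and also with raw library totals, with limma-voom and with all 36 libraries in the fit (adjusted p up to 0.18), and 5 of the 13 were called without that replicate. The share of all counts on mitochondrial genes, given above, was lower in every avelumab library, and its part in this result was not tested. Nuclear genes of the respiratory chain (40 tested, median -0.067) and cytosolic ribosomal proteins (75 tested, median -0.058) had 0 called members by edgeR. Below 0 were 38 of the 40 and 72 of the 75 (32 and 65 with raw library totals). The avelumab libraries lay wholly below atezolizumab for 12 and 17 members, against 9.02% of all genes, and wholly above for 0 and 2, against 14.4%. At an unadjusted p under 0.05 there were 6 and 4 members, 6 and 3 of them lower, against 15.2% of all genes. All 12 tested histones lay above 0, with a median of 0.17. The single called histone, H2AC6 (0.39 ± 0.065), is a member of a family of near copies and is uncertain. GPNMB, a lysosomal membrane glycoprotein, was the called member of 42 tested lysosome genes (0.45 ± 0.071), and NUPR1 that of 40 tested amino acid response genes (0.30 ± 0.065; adjusted p up to 0.15 over the alternatives).

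**Figure D4:**
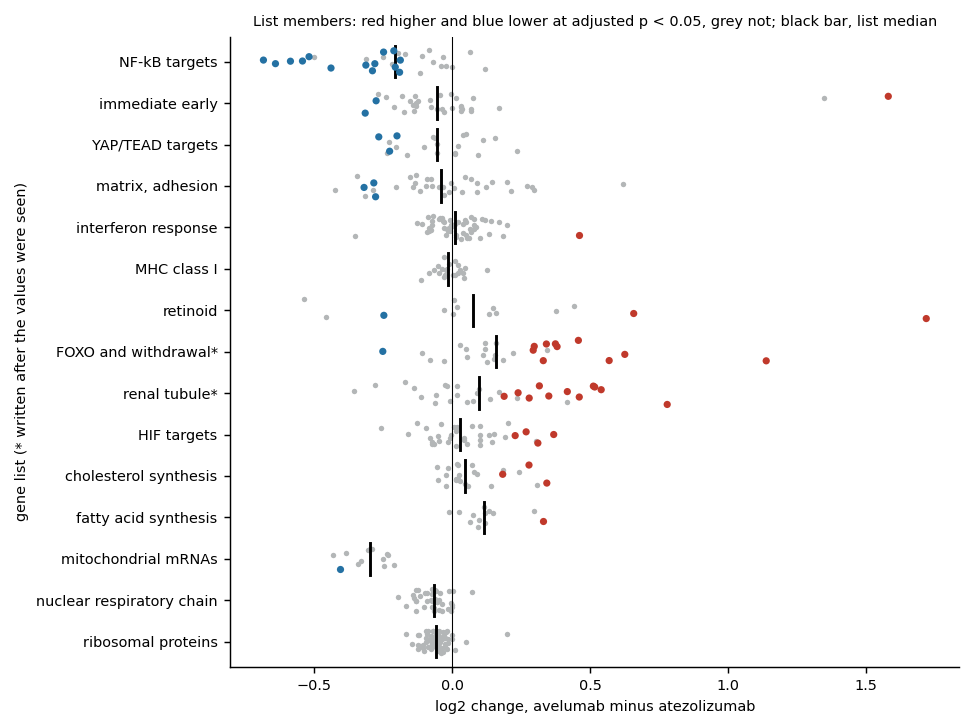
Log2 change of avelumab minus atezolizumab (horizontal axis) for the tested members of 15 gene lists (rows), red where called higher, blue where called lower and grey where not called, with a black bar at the list median. The NF-kB list and the mitochondrial messenger RNAs have the lowest medians, -0.21 and -0.30; the 2 lists marked with an asterisk were written after the values were seen.

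Durvalumab, the other antibody applied to these cells, shares libraries with each comparison below, so values are set side by side without an overlap. Against atezolizumab, durvalumab had 0 genes past the threshold by edgeR, and 2251 genes (11.9%) at an unadjusted p under 0.05. Avelumab against durvalumab had 73 genes (0.387%), 65 higher (0.344%) and 8 lower (0.0424%). For DHRS3 the log2 change was 0.35 for durvalumab minus atezolizumab and 1.36 for avelumab minus durvalumab, with adjusted p = 0.35 and 1.1e-06. For EGR1 the values were -0.0058 and 1.59 (adjusted p = 0.99 and 1.1e-06). For IL6 they were -0.21 and -0.31 (adjusted p = 0.32 and 0.045), and the NF-kB list had medians of -0.13 and -0.11. The chi-square per gene between replicate pairs was 6.9 to 20.1 for durvalumab, 2.8 to 6.1 for atezolizumab and 5.5 to 8.7 for avelumab. The ranges of durvalumab and avelumab overlapped, and 2 of the 3 durvalumab pairs, both with replicate 1, lay above every pair of the other antibodies.

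The same antibodies were compared in 3 other cell states from separate libraries. Each state carries a batch label of its own, so cell state and batch cannot be told apart. The libraries labelled A498 resistant went against that label: across 16598 genes, mean log2(CPM + 1) under atezolizumab correlated with 786-O resistant cells at r = 0.986 and with A498 parental cells at r = 0.884, while 786-O parental and resistant cells correlated at r = 0.961. No A498 identity is assumed for them below. In parental 786-O cells, never selected on sunitinib, 763 genes (4.34%) differed between avelumab and atezolizumab, 477 higher and 286 lower. Of the 159 genes higher in resistant cells, 44 were also called higher in parental cells, which is 27.7% of the resistant list and 9.22% of the parental list, where 2.71% of all genes were called higher. Of the 69 lower genes, 8 were called lower in parental cells (11.6% and 2.8% of the lists), where 1.63% of all genes were called lower. Calls of opposite sign numbered 1 and 2. The median change in parental cells was 0.18 for the higher genes and -0.028 for the lower genes, against 0.36 and -0.26 in resistant cells for the genes tested in both.

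Shared genes came from several groups. EGR1 rose in parental cells by 2.97 ± 0.50 (adjusted p = 0.031), DHRS3 by 0.65 ± 0.16 (0.019), ALDH1A1 by 0.31 ± 0.037 (2.0e-05), SCD by 0.47 ± 0.061 (0.0028) and KMO by 0.69 ± 0.073 (2.4e-05). SEMA5B was higher there by 1.13 ± 0.23 (0.011) and CLDN2 missed the threshold at 1.30 ± 0.28 (0.054). All 11 renal tubule genes called in resistant cells lay above 0 in parental cells, and 5 of them were called there. IL6, CSF2 and CXCL8 lay below 0 in parental cells by similar amounts (-0.52 ± 0.16, -0.66 ± 0.20 and -0.46 ± 0.22) but none passed (adjusted p = 0.14, 0.14 and 0.33). Of the 13 called NF-kB members tested in parental cells, 11 lay below 0 and 2 were called lower, LIF and NFKB2. Over the whole NF-kB list, 27 members were tested in parental cells, with a median of -0.18 against -0.21 in resistant cells. Of these, 5 were called lower and 2 higher, where 1.63% and 2.71% of all genes were.

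The test of whether the antibody difference itself differed between resistant and parental 786-O cells called 232 of 19369 genes (1.2%), 88 with a higher (0.454%) and 144 with a lower difference (0.743%) in resistant cells. TXNIP had the lowest p on the higher side. Its change was 0.57 ± 0.065 in resistant and -0.17 ± 0.054 in parental cells, a difference of 0.75 ± 0.087 (adjusted p = 2.3e-05). Parental levels were 32.7 ± 2.34 CPM under atezolizumab and 29.4 ± 2.11 CPM under avelumab. MAP7D2 differed by 0.73 ± 0.10 (adjusted p = 4.2e-04), ARRDC3 by 0.46 ± 0.075 (0.002) and DHRS3 by 1.08 ± 0.22 (0.017). AKAP12, a kinase scaffold, differed by 0.48 ± 0.072 (0.0011), with a fall in parental cells (-0.36 ± 0.049) with no call in resistant cells (0.11 ± 0.051). On the lower side, ATOH8, a helix-loop-helix factor downstream of BMP, rose under avelumab in parental cells (0.97 ± 0.10) and was at 22.7, 20.7 and 23.2 CPM under atezolizumab and 22.8, 23.4 and 21.7 CPM under avelumab in resistant cells, where its change was 0.0046 ± 0.073 and the groups overlapped; the difference was -0.96 ± 0.13 (adjusted p = 1.9e-04). QPRT, which makes a precursor of NAD, differed by -0.44 ± 0.069 (0.0011), UAP1L1 by -0.38 ± 0.06 (0.0011), and RECQL4, a DNA helicase, by -0.37 ± 0.058 (0.0011), each with a rise in parental cells. DUSP1 differed by -0.52 ± 0.084 (0.0022) and CCN1 by -0.35 ± 0.058 (0.0022). In the NF-kB list 2 members differed, CXCL1 (-0.75 ± 0.19, adjusted p = 0.048) and CSF1 (-0.28 ± 0.067, 0.03). The difference in DHRS3 missed the threshold without resistant atezolizumab replicate 2 or parental atezolizumab replicate 1, and each of CXCL1 and CSF1 missed it without at least 8 of the 12 libraries in turn; the other genes of this paragraph passed in every alternative.

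The number of genes in this test moved with single libraries. It was 152, 58 and 115 without atezolizumab replicates 1, 2 and 3 of the resistant cells, 705, 73 and 92 without their avelumab replicates 1, 2 and 3, 57 without atezolizumab replicate 1 of the parental cells, and 92 and 60 without parental avelumab replicates 2 and 3.

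**Figure D5:**
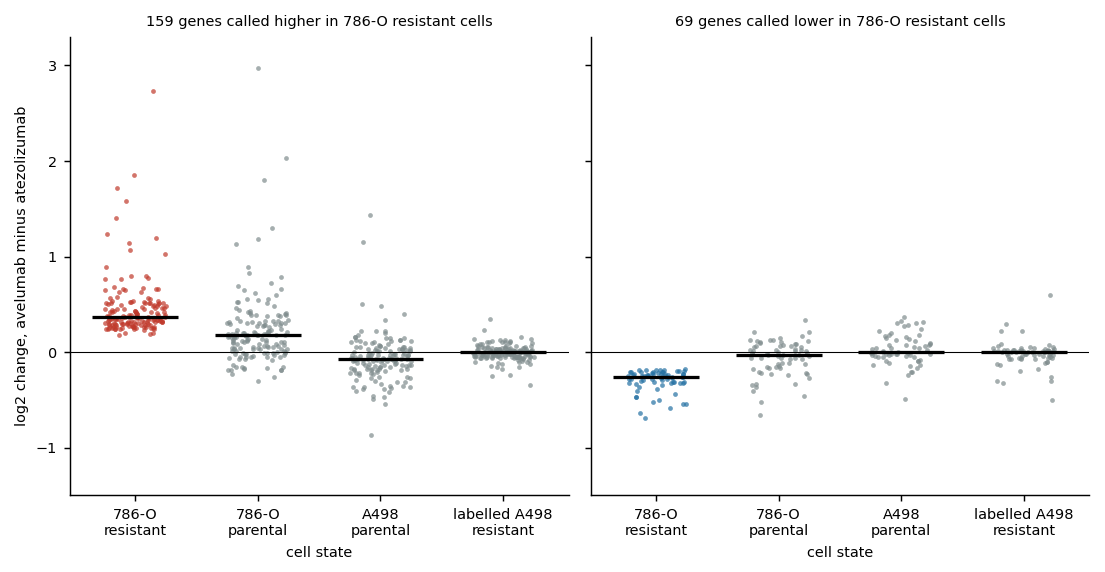
Log2 change of avelumab minus atezolizumab (vertical axis) of the 159 genes called higher (left) and the 69 called lower (right) in 786-O resistant cells, in each of 4 cell states (horizontal axis), with a black bar at the median. The 786-O resistant column was used to choose the genes; in parental 786-O cells the medians are 0.18 and -0.028, and in the other states they lie between -0.07 and 0.007.

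In A498 parental cells, another clear cell carcinoma line, 623 genes (3.39%) differed between the antibodies, 315 higher (1.71%) and 308 lower (1.68%). Of the 159 higher genes 8 were called higher and 8 lower there, and of the 69 lower genes 4 were called lower and 8 higher. The medians were -0.07 and 0.0065. BMF rose (0.48 ± 0.094, adjusted p = 0.0035), while CDH6 (-0.23 ± 0.044, 0.0033), TXNIP (-0.21 ± 0.054, 0.027) and IGFBP3 (-0.29 ± 0.037, 3.4e-05) fell and CSF1 (0.16 ± 0.035, 0.0097) and TGM2 (0.22 ± 0.039, 0.0014) rose, opposite to 786-O resistant cells. Of the 11 renal tubule genes called higher in 786-O resistant cells, 10 lay below 0 in A498 parental cells, where 1 of them, CDH6, was called lower and 0 were called higher by edgeR. The difference between A498 parental and 786-O resistant cells was not tested.

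In the libraries labelled A498 resistant, 0 of 17510 genes passed by edgeR and 619 (3.54%) had an unadjusted p under 0.05. The medians of the 159 and 69 genes were -0.0032 and 0.0049. The log2 change there was 0.027 ± 0.056 for DHRS3, 0.053 ± 0.077 for EGR1 and -0.07 ± 0.075 for IL6. The test of the difference from 786-O resistant cells, added after the data were seen, called 59 of 19196 genes (0.307%), 54 with a higher (0.281%) and 5 with a lower difference (0.026%) in 786-O resistant cells. All 59 were among the 228 genes called in 786-O resistant cells, with the sign of that change. The test used the same 786-O resistant libraries that called them, so it is not separate from that comparison. Of the 32 named genes among the 59, 13 passed in every alternative and 19 missed the threshold in at least 1. The count was 28 to 139 when single libraries were left out. It was 35 and 28 without atezolizumab replicates 1 and 2 and 36 without avelumab replicate 1 of the labelled A498 resistant cells, and 33 and 139 without atezolizumab replicate 2 and avelumab replicate 1 of the 786-O resistant cells. Total counts of these 6 libraries ran from 19994882 to 37219906.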

How the data were processed

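Polyadenylated RNA was sequenced from 36 libraries made with a stranded kit, per the labels, 3 for each of 4 cell states and 3 antibodies; 6 form the comparison and the 3 durvalumab libraries of the same cells entered its fit. The values are raw counts per gene, as deposited by the authors. Per the submitters' processing notes, bcl2fastq 2.19.0, Trimmomatic 0.36.6, HISAT2 2.1.0, featureCounts 1.6.3 and the build GRCh38 were used; no annotation release or strand setting was found in the labels, and genes with at least 10% of exonic length shared with another gene are called uncertain. Gene symbols, positions and overlaps come from GENCODE 29 on GRCh38, with 45283 of 45478 identifiers given a symbol.

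Genes passed edgeR's filterByExpr (minimum count 10, minimum total 15), were scaled by TMM and tested with the robust quasi-likelihood test of edgeR 4.0.16 in R 4.3.3; every adjusted p without another tool's name is from this test, Benjamini-Hochberg adjusted over all genes tested, with a threshold of 0.05. Values after ± are standard errors beside log2 changes and SDs beside CPM. CPM values use raw totals; total counts give the precision, and the floor of 3 counts covers counting error only. The test of differences between cell states fitted 18 libraries. Named genes were the 12 highest and 12 lowest called changes among genes of at least 5 CPM without overlap, up to 4 members of each list with the largest change, 4 genes on each side of the difference between 786-O states, and CD274; a few genes under this rule are not reported here, and further called members of the lists shown were named after their values were seen. Members and lists were chosen with earlier results of these data known. Of 37 lists 19 held a called member and 18 held none; 3 further lists, of FOXO targets, renal tubule genes and the kynurenine pathway (1 of 10 tested called, KMO), were written after the values were seen. Alternatives used limma 3.58.1, DESeq2 1.42.0, other scalings and filters, other sets of libraries and each library left out. The scripts' tests were checked on simulated data. Replicate numbers were not used as pairs in the main fit. Deviations of same-numbered atezolizumab and avelumab libraries correlated near 0, and those of avelumab and durvalumab reached 0.11 for replicate 1.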

Additional observations from a re-analysis of the deposited data

Results flagged for a closer look

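The difference between avelumab and atezolizumab itself differed between 786-O resistant and parental cells for 232 genes by edgeR's test of that difference, and 19 genes named in the text are among them. The values below are log2 differences, resistant minus parental. They were above 0 for DHRS3 (1.08), FRK (0.84), TXNIP (0.75), MAP7D2 (0.73), TNFSF10 (0.56), AKAP12 (0.48), ARRDC3 (0.46), ALDH1A1 (0.36) and HK2 (0.26). They were below 0 for CSF1 (-0.28), CCN1 (-0.35), RECQL4 (-0.37), UAP1L1 (-0.38), QPRT (-0.44), SLCO4A1-AS1 (-0.48), DUSP1 (-0.52), ID1 (-0.59), CXCL1 (-0.75) and ATOH8 (-0.96). Of the 19, 11 passed in every alternative and 8 missed the threshold in at least 1. ID1 missed it in 11, FRK in 10, HK2 and CXCL1 in 9 each, ALDH1A1, CSF1 and SLCO4A1-AS1 in 8 each and DHRS3 in 2. CSF1 and CXCL1, which fell in resistant cells, had changes of 0.083 ± 0.038 and 0.11 ± 0.15 in parental cells, neither past the threshold.

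Against the libraries labelled A498 resistant, whose line is in doubt, the same test called 59 genes, of which 32 are named in the text. All 59 are among the 228 genes called in 786-O resistant cells, from the same libraries, so these values are not separate from that comparison. Of the 32, 13 passed in every alternative and 19 missed the threshold in at least 1, KLHL24 in 10, FOSL1 in 9 and YPEL2, IER3 and IL32 in 8 each. The values, 786-O resistant minus the labelled libraries, were above 0 for DHRS3 (1.69), EGR1 (1.53), BMF (1.23), SEMA5B (1.18), PTGES (0.88), MAP7D2 (0.85), CLDN2 (0.83), YPEL2 (0.63), ALDH1A1 (0.60), KMO (0.59), CD24 (0.59), TXNIP (0.58), CCNG2 (0.51), GPNMB (0.50), CDH6 (0.45), H2AC6 (0.45), ELF3 (0.43), FBXO32 (0.42), ENPEP (0.41), KLHL24 (0.40), ARRDC3 (0.40), SLC4A4 (0.38), NDRG1 (0.36), PDCD4 (0.36), HK2 (0.33), SCD (0.32), IGFBP3 (0.30) and ATP1B1 (0.30). They were below 0 for IL32 (-0.30), FOSL1 (-0.31), IER3 (-0.34) and ITGB2-AS1 (-0.76). Both tests compare cell states that carry different batch labels, and the 2 cannot be told apart.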

How the results depend on the processing

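The count of 228 genes was 617 with no filter on low counts, 365 with DESeq2, 469 with only the 6 libraries and 662 with all 36 libraries in the fit, and 73 to 297 when 1 of the 6 libraries was left out. With raw library totals 81.8% of calls were higher, against 69.7% with TMM, and the median change of all genes was 0.020 against -0.003. Deviations of same-numbered atezolizumab and avelumab libraries correlated at -0.0045, -0.045 and 0.035. Those of avelumab and durvalumab correlated at 0.11, -0.0012 and 0.050, and those of atezolizumab and durvalumab at 0.0016, 0.019 and 0.018. With the replicate number as a block the count of 228 became 410. The count of 232 genes that differed between resistant and parental cells was 731 with no filter, 536 with DESeq2, 178 with the replicate block and 57 to 705 with 1 library left out. The count of 59 against the libraries labelled A498 resistant was 175 with no filter, 83 with the replicate block and 28 to 139 with 1 library left out. Of 80 named genes past the threshold, 31 passed in every alternative that tested them, 49 missed it in at least 1 and 0 changed sign; over 1353 values 206 missed it. Of the 19 named genes that differed between resistant and parental cells 11 passed in every alternative, and of the 32 against the libraries labelled A498 resistant 13 did. Changes that did not pass and lay near 0 changed sign. ATOH8 was at -0.0024 with libraries thinned to equal depth, an alternative chosen after the data were seen, and between -0.049 and 0.041 with 1 library left out, below 0 without atezolizumab replicate 2 (-0.049) or avelumab replicate 2 (-0.025). CD274 was at 0.0013 when thinned. QPRT was at -0.00054 with limma-voom, -8.4e-05 with the replicate block, -0.0021 when thinned, and between -0.047 and 0.029 with 1 library left out, below 0 without atezolizumab replicate 2 (-0.017) or avelumab replicate 1 (-0.047). The NF-kB list had 4 to 8 called members with 1 library left out and 9 to 18 under the other alternatives, and the mitochondrial list 0 to 5 and 0 to 12. With 3 libraries a group an exact two-sided permutation test of 1 gene cannot go below p = 0.1. The CPM floor of 0.0935 in the smallest atezolizumab library limits what can be said of genes at 0.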

Other observations

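Further called genes, chosen after their values were seen, concern immune ligands, a cytokine receptor and transcription regulators. TNFSF10, the death ligand TRAIL, was at 261, 256 and 285 CPM under atezolizumab and 309, 310.5 and 348 CPM under avelumab (log2 change 0.25 ± 0.057, adjusted p = 0.034). ELF3, an epithelial ETS factor that shares 18.5% of its exonic length with an antisense gene, was at 45.5, 39.5 and 43.4 CPM and 67.5, 61.8 and 59.2 CPM (log2 change 0.53 ± 0.063, adjusted p = 1.2e-04). PPARGC1A, a coactivator of mitochondrial genes, was at 7.69, 5.95 and 7.16 CPM and 9.45, 9.62 and 9.31 CPM (log2 change 0.42 ± 0.093, adjusted p = 0.029). On the lower side, SAA1, an acute phase protein with a close copy in SAA2, was at 115, 112 and 114 CPM and 97.9, 97.5 and 95.1 CPM (log2 change -0.25 ± 0.052, adjusted p = 0.015). IL7R, the interleukin 7 receptor, was at 118, 125 and 119 CPM and 96.9, 107 and 109 CPM (log2 change -0.23 ± 0.05, adjusted p = 0.023), and ULBP2, a ligand of the NK cell receptor NKG2D, at 31.7, 30.8 and 32.6 CPM and 27.1, 26.7 and 26.8 CPM (log2 change -0.26 ± 0.055, adjusted p = 0.019). Of these 6, the call of ELF3 held in every alternative, and each of the others missed the threshold when at least 1 of the 6 libraries was left out.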
